A study of Homo sapiens with 4 samples.

Results

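The zinc finger genes of chromosome 19 with RNA bound to NSUN2 are described here in pancreatic cancer cells given lactate or water. A gene was taken as a member if the deposited peak lists named it with a symbol of ZNF and a digit, placed it on chromosome 19 and gave it the biotype protein-coding. In all, 194 genes met this rule in at least 1 of the 2 lists, of 12396 protein-coding genes with a symbol in the lists. Of these, 135 genes had a peak in both lists, 11 only in the lactate list and 48 only in the ddH2O list. Their peaks fell into 764 merged peaks, of 116484 in the whole table, and 220 ZNF genes of other chromosomes with 1252 merged peaks served as the comparison.

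RNA immunoprecipitation sequencing (RIP-seq) reads the RNA pulled out of a lysate together with a chosen protein. That protein was NSUN2, an enzyme that methylates cytosines of RNA to 5-methylcytosine (m5C). The cells were wild-type PANC-1, an established human pancreatic ductal adenocarcinoma line, given 30 mM sodium lactate or its vehicle ddH2O for 24 h. Each condition had 1 immunoprecipitation (IP) library and 1 input library of RNA collected before the pull-down, 4 libraries in all. No difference between lactate and ddH2O therefore has a replicate check, and no test between the conditions was possible. All intervals printed here are at the 95% level and cover counting error only. A larger number of reads at a gene can reflect more of its RNA in the cells as well as more binding, and no input reads per merged peak were used here.

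Human zinc finger genes of this kind encode proteins with arrays of cysteine-histidine fingers, each finger touching a few bases of DNA, and many carry a KRAB domain at the other end. The KRAB domain recruits TRIM28, which brings the histone methyltransferase SETDB1 and heterochromatin proteins to the bound DNA, and this machinery is best known for silencing transposable elements. Chromosome 19 is known for its tandem clusters of such genes, which arose by repeated duplication. Neighbouring members therefore often share long stretches of nearly the same sequence, and a read from such a stretch can be placed on either copy, so the values of close relatives are uncertain. The library kit does not mark the strand of the RNA, so a member and a gene running over it in the other direction cannot be told apart either.

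Sequence under a peak could be shown where a peak covered the start of a member, since the promoter table of RefSeq (GRCh38.p14) holds the first transcribed bases. An entry was found for 174 of the 194 members. The window around the start was touched by a lactate peak in 1 member and by a ddH2O peak in 7 members. For 3 members the first 30 transcribed bases lay wholly inside a ddH2O peak, and they are printed with cytosines, the base NSUN2 methylates, in capitals.
ZNF493, chr19:21397133-21397162, plus strand: attgtttCtCtCtgCtgCCggagCtCCagg
ZNF350, chr19:51986811-51986840, minus strand: aCtCCagaagtaggagCagtttaCggaagt
ZNF544, chr19:58228914-58228943, plus strand: aCCggaagCaCCgCCattggCCggtgCgtg
The stretch of ZNF544 held 10 cytosines in 30 bases, that of ZNF493 held 9 and that of ZNF350 held 5. Only the ZNF544 peak was a strong call, with a fold over input of 6.06 and a q-value of 4.95e-07, and 24 reads were recovered from the lactate IP against 35 in the ddH2O IP. The peaks of ZNF493 (fold 1.82, q = 1) and ZNF350 (fold 2.43, q = 0.816) were weak calls, with 0 and 2 reads and with 0 and 0 reads in the lactate and ddH2O IP. Whether any of these cytosines carries m5C was not measured in these data.

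The labelled cell type was checked against marker genes. Peaks were found on 5 of 6 ductal epithelial markers, the keratins KRT7, KRT8, KRT18 and KRT19 and the adhesion protein EPCAM, with none on the ductal transcription factor SOX9. The EPCAM peak was weak, called in the ddH2O list only at 1.82-fold over input, with 1 read in the lactate IP against 3 in the ddH2O IP. Of 9 markers of leukocytes, endothelium, fibroblasts, acinar and islet cells, 2 had a merged peak. These were PTPRC, with 0 reads in the lactate IP against 3 in the ddH2O IP, and the collagen gene COL1A1, with 47 and 50 reads. Over the whole table, 9756054 reads were recovered for lactate and 9553835 for ddH2O. Once all merged peaks of the mitochondrial chromosome and of the nuclear RNA MALAT1 were set aside, the sums were 1945000 and 3536821, 1.82-fold larger for ddH2O. These sums cover only the windows of merged peaks, many of which overlap or were called for ddH2O alone, so they are not library depths, which are unknown.

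Most zinc finger genes of the chromosome gave a peak. Of 250 protein-coding ZNF genes that RefSeq places on chromosome 19, 193 had a peak in at least 1 list, a share of 77.2% (Wilson interval 71.6% to 82.0%). The share was 81.6% of 267 ZNF genes elsewhere (76.6% to 85.8%) and 60.9% of 20056 protein-coding genes (60.3% to 61.6%). In the lactate list 146 of the 250 genes had a peak (58.4%) and in the ddH2O list 182 (72.8%), beside 47.1% and 58.4% of all protein-coding genes. Among the 57 genes with no peak were ZNF93, a repressor of LINE-1 elements, and ZNF224, a KRAB repressor. The pathway column of the deposited lists put 147 of the 194 members (75.8%) in the KEGG set for herpes simplex virus infection, against 92 of 220 ZNF genes elsewhere (41.8%) and 367 of 12692 protein-coding gene IDs of the lists, with or without a symbol (2.89%).

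The lactate list held 336 peaks in 146 members and the ddH2O list 623 peaks in 183 members. Median enrichment over input was 3.56-fold in the lactate list, beside 3.52-fold for ZNF genes elsewhere and 3.24-fold for all protein-coding genes. In the ddH2O list it was 3.03-fold for the members, 3.21-fold for ZNF genes elsewhere and 3.03-fold for all protein-coding genes. In the lactate list, 149 of the members' 336 peaks (44.3%) had a q-value below 0.05, and in the ddH2O list 322 of 623 (51.7%), near the 44.6% and 50.9% of all protein-coding peaks. Peaks were short, with a median length of 234 bases for lactate and 251 for ddH2O. Median enrichment and length of the members' peaks were thus close to those of other genes with peaks in the same list.

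Peaks of the members lay in 3' UTRs more often than peaks of other genes. In the lactate list 104 of 336 peaks were in a 3' UTR, a share of 31.0% (26.2% to 36.1%), against 21.6% for ZNF genes elsewhere and 18.1% for all protein-coding genes. In the ddH2O list the share was 164 of 623, or 26.3% (23.0% to 29.9%), against 19.8% and 15.8%. The 3' UTR intervals of the members lay above those of all protein-coding genes in both lists. Introns held 177 lactate peaks (52.7%, 47.3% to 58.0%) and 321 ddH2O peaks (51.5%), below the 61.5% and 61.2% of all protein-coding peaks. Other exon sequence held 42 lactate peaks (12.5%) and 108 ddH2O peaks (17.3%), beside 18.8% and 21.0% of all protein-coding peaks. In 5' UTRs lay 13 (3.87%) and 30 (4.82%), beside 1.58% and 1.98% of all protein-coding peaks. Regions are those of the deposited annotation.

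Along the genes, more summits lay at the 3' end than at the 5' end, as they did for the comparison genes. Of the peaks with a summit inside the RefSeq span of their gene, 70 of 287 lactate peaks (24.4%, 19.8% to 29.7%) and 108 of 536 ddH2O peaks (20.1%, 17.0% to 23.8%) lay in the last 10% of the span. For ZNF genes elsewhere this stretch held 20.5% (17.2% to 24.2%) and 18.5% (16.2% to 21.0%), intervals that overlap those of the members, and over all protein-coding genes it held 19.4% and 17.0%. The first 10% of the span held 10.8% and 10.6% of the members' peaks, against 8.53% and 8.96% over all protein-coding genes. Intron peaks of the members sat towards the 5' end, with a median position at 0.36 of the span for lactate and 0.38 for ddH2O, where 0 is the 5' end and 1 the 3' end. The same median was 0.39 and 0.41 for ZNF genes elsewhere and 0.44 and 0.45 over all protein-coding genes. The median span was 23.3 kb for the members, 25.3 kb for ZNF genes elsewhere and 36.8 kb for all protein-coding genes with a peak.

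Some member peaks cannot be tied to 1 gene. A summit outside the RefSeq span of the named gene was found for 49 lactate and 87 ddH2O peaks. Of the 194 members, 32 had a called peak wholly outside their span and 5 had all of them there, among the latter ZNF432 and ZNF155. A further RefSeq gene overlay 73 of the 336 lactate peaks (21.7%) and 124 of the 623 ddH2O peaks (19.9%). Pairs of this kind were ZNF565 with ZNF146, ZNF551 with ZNF154, ZNF544 with ZNF8-DT and ZNF529 with its antisense gene ZNF529-AS1.

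Of the 336 lactate peaks, 192 shared 1 base or more with a peak of the ddH2O list (57.1%, 51.8% to 62.3%), and 188 of 623 did so in the other direction (30.2%, 26.7% to 33.9%). Over all protein-coding peaks these shares were 58.5% and 29.9%. The shared part was 69 of 104 lactate peaks in 3' UTRs (66.3%, 56.8% to 74.7%) and 93 of 177 in introns (52.5%, 45.2% to 59.8%). The ddH2O list was longer over the whole genome as well, so a peak called only there is not by itself a peak lost with lactate.

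Among the 4 member peaks with the highest fold in each list, most lay inside introns. This did not hold for strong peaks in general. Of member peaks of at least 4-fold, exons and 3' UTRs held 45.8% for lactate and 49.5% for ddH2O, against 43.5% and 43.7% of all member peaks. The highest fold over input of any protein-coding peak was 80.2 for lactate and 88.6 for ddH2O, above every member. ZNF780B (ENSG00000128000), a member whose close relative ZNF780A lies next to it, had the highest fold over input of all members in both. In the lactate list its intron peak at chr19:40040713-40043403 stood 26.0-fold over input, and in the ddH2O list the peak at chr19:40042515-40043370 inside the same stretch stood 37.8-fold over input. ZNF544 came next in both lists, with an intron peak at chr19:58255464-58256220 of 22.1-fold in the lactate list and one at chr19:58255589-58256239 of 26.0-fold in the ddH2O list. The lactate list went on with intron peaks of ZNF160 at 15.8-fold and ZNF865 at 12.9-fold. In the ddH2O list an intron peak of ZNF665 at 23.0-fold and a 3' UTR peak of ZNF66 at 18.5-fold followed. The windows of these peaks held 45 reads in the lactate IP against 57 in the ddH2O IP for ZNF160, 44 and 24 for ZNF865, 38 and 54 for ZNF665, and 89 and 137 for ZNF66. Of these, only the ZNF865 window held more reads in the lactate IP.

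Reads per merged peak were computed back from the deposited read densities, which cover a window of 2000 bases around each merged peak. The 764 merged peaks of the members held 12770 lactate IP reads and 19077 ddH2O IP reads, with a median of 6 and 9 reads per window. Windows of 405 merged peaks (53.0%) overlapped another window, so a read can be counted more than once. Of the 764, 185 were called in both lists, 144 in the lactate list only and 435 in the ddH2O list only. No read was recovered in either IP for 13 merged peaks. Intron windows took 47.0% of the members' lactate IP reads and 41.3% of their ddH2O IP reads, beside 33.1% and 27.6% for ZNF genes elsewhere and 25.9% and 19.5% for all protein-coding genes. Without ZNF780B the intron shares were 37.0% and 33.5%, and the 3' UTR shares rose from 38.2% and 42.9% to 47.8% and 50.2%.

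Reads were concentrated in few genes. The 6 members with the most reads held 36.1% of all member reads, and ZNF780B alone held 20.6% of those in the lactate IP and 15.1% of those in the ddH2O IP. ZNF780B had 2636 reads in the lactate IP against 2895 in the ddH2O IP over its 9 merged peaks. ZNF83 had 848 and 1346 reads over 24 merged peaks, the largest number of any member. ZNF544 had 527 and 759 reads over 17 merged peaks, ZNF814 had 355 and 720 over 8, ZNF546 had 313 and 455 over 9, and ZNF780A had 215 and 470 over 4. These sums grow with the number of windows and are not levels per length. In each of the 6 genes the count was higher in the ddH2O IP, whose summed reads were larger, and for ZNF780B the ratio of the counts was closest to 1. Members with many merged peaks were also ZNF808 and ZNF586, with 16 each, and ZNF765 and ZNF569, with 15 each. At the other end, 46 members had a single merged peak and 15 had 10 or more.

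The ratios of ZNF780B and its neighbour ZNF780A lay apart. In the strongest ZNF780B window, at chr19:40040713-40043403, 1465 reads were recovered from the lactate IP and 1472 from the ddH2O IP. Read densities after the authors' normalization were 1192 and 453.0, a log2 ratio of 1.40 (counting interval 1.29 to 1.501). Reads scaled by the library sums gave 0.86 (0.75 to 0.96). With nearly equal reads, both ratios come almost wholly from the scaling, which the counting intervals do not cover. The authors' normalization adds more at higher density (slope 0.17), and the library-sum scale adds 0.86 to every log2 ratio. On both scales, 3 further windows downstream in the gene were also higher, with 402 and 532, 385 and 431, and 326 and 334 reads in the lactate and ddH2O IP. Their log2 density ratios were 0.72, 0.93 and 1.00, and their library-sum ratios 0.46, 0.70 and 0.83. The peaks lie close together and their windows can share reads, so these ratios are not independent of each other. Closer to the 5' end of the gene, a 5' UTR window went the other way, with 8 reads in the lactate IP against 26 in the ddH2O IP (log2 density ratio -1.29, -2.76 to -0.22), as did an exon window with 7 and 19 reads (-1.08, -2.69 to 0.12). The 3' UTR window held 36 and 62 reads (-0.20, -0.85 to 0.40). Of the 7 counted windows of the gene, only the 4 windows with the most reads were higher in the lactate IP by density. Before any scaling, every one of the 7 windows held fewer reads in the lactate IP.

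The windows of ZNF780A held 107 reads in the lactate IP against 184 in the ddH2O IP in the 3' UTR, and 22 and 59, 45 and 117, and 41 and 110 in 3 exon windows. The log2 density ratios were 0.06, -0.88, -0.69 and -0.75. The 3' UTR window was thus near 0 and the exon windows were lower in the lactate IP. ZNF546, the third gene of this small cluster, with 8 of its 12 called peaks outside its RefSeq span, had 132 and 208 reads in its largest 3' UTR window, a log2 density ratio of 0.22 (-0.11 to 0.54).

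How much the whole family differed between the conditions depends on how the libraries are set level. On the deposited densities, MAnorm sets the peaks common to both lists level along a straight line in mean density, and at the members' median density this line shifted the log2 ratio by 0.36. On the other scale, 1 read was added and each library was divided by its sum without the mitochondrial chromosome and MALAT1. Only merged peaks with at least 20 reads over both IP libraries are counted, which were 324 of the members' 764, in 123 genes. The median log2 ratio of lactate over ddH2O was -0.09 by density, beside -0.20 over all merged peaks and -0.26 for ZNF genes elsewhere. By library sums it was 0.29, beside 0.13 and 0.10. The direction of the members' median thus turned with the scaling, while on both scales it stood slightly above that of all merged peaks.

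By density, 28 of the 324 merged peaks (8.64%) were at least 2-fold higher in the lactate IP, beside 7.65% of all 37925 merged peaks with as many reads. At least 2-fold lower were 53 (16.4%), beside 18.6% of all. By library sums, 60 (18.5%) were higher, beside 17.0% of all, and 31 (9.57%) lower, beside 8.77% of all. Past the fold on both scales were 26 higher merged peaks (8.02%, beside 7.59% of all) and 31 lower ones (9.57%, beside 8.72%). Every one of these shares was near that of the whole table. Higher merged peaks made up 34.6% of the changed ones by density and 65.9% by library sums, against 29.2% and 66.0% over all merged peaks. By density, a higher merged peak was found in 19 members and a lower one in 39, with 4 members having both. By library sums a higher one was found in 37 members and a lower one in 24. These counts per gene were not made for other genes, and a gene with more windows has more chances to be counted.

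Transcript regions differed in how their windows moved. Among the members' intron windows, 18 of 131 were at least 2-fold higher by density (13.7%) and 19 lower (14.5%), near the 13.0% and 17.4% of all intron windows. In 3' UTRs 5 of 125 were higher (4.00%) and 18 lower (14.4%), against 2.29% and 15.5% of all 3' UTR windows. In exons 3 of 54 were higher (5.56%) and 15 lower (27.8%), against 2.95% and 22.7% of all exon windows. The 14 windows in 5' UTRs had 2 higher (14.3%) and 1 lower (7.14%), against 4.67% and 29.6% of all 493 such windows, and 1 of the higher ones was ZNF780B. Medians by density were -0.03 in introns, -0.09 in 3' UTRs, -0.27 in exons and 0.39 in 5' UTRs, beside -0.04, -0.22, -0.38 and -0.46 over all merged peaks. By library sums the balance changed, with 36 intron windows higher (27.5%) and 12 lower (9.16%), beside 27.3% and 7.80% of all intron windows. In 3' UTRs 12 were then higher (9.60%) and 13 lower (10.4%), beside 6.61% and 7.03% of all. Exons then had 8 higher and 6 lower, beside 8.19% and 11.5% of all, and 5' UTRs 4 higher and 0 lower, beside 10.8% and 14.6%. Medians by library sums were 0.46 in introns, 0.21 in 3' UTRs, 0.17 in exons and 0.85 in 5' UTRs. Introns thus held most of the higher windows in the family, as they did over the whole table.

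The fold was larger where reads were few. Among the 60 merged peaks with at least 100 reads, only 2 were at least 2-fold higher and 1 lower by density, and both higher ones were in ZNF780B. These are 3.33% and 1.67%, beside 1.79% and 6.65% of all 9210 merged peaks with as many reads. Beside the ZNF780B windows already given, the largest ratios in this group were in a 3' UTR window of ZNF611 with 84 reads in the lactate IP against 80 in the ddH2O IP (log2 density ratio 0.77, 0.31 to 1.23) and in an exon window of ZNF358 with 97 and 111 (0.57, 0.16 to 0.97). The lowest was a 3' UTR window of ZNF525 with 34 and 111 reads (-1.04, -1.67 to -0.51), beside an overlapping one with 35 and 107 (-0.95). Others on the low side were 2 windows of ZNF69 with 46 and 152 reads (-0.995) and 46 and 127 (-0.76), and a 3' UTR window of ZNF8 with 33 and 95 (-0.89). A second 3' UTR window of ZNF8 went the other way, with 27 and 16 reads (1.10). By library sums, ZNF525 stood at -0.82 and ZNF69 at -0.84 in their lowest windows, short of 2-fold.

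Below 100 reads, larger ratios were found in both directions. Intron windows of ZNF569 held 38 reads in the lactate IP against 15 in the ddH2O IP (log2 density ratio 1.70, 0.86 to 2.72) and 32 and 14 (1.52), and an intron window of ZNF586 held 23 and 7 (1.85, 0.72 to 3.45). A window named for ZNF432 as intron held 58 and 32 reads (1.39), but all 7 called peaks of this gene lay outside its RefSeq span and 6 of them on ZNF841. Likewise, 15 of the 18 called peaks of ZNF586 lay outside its span. In the same direction, a 3' UTR window of ZNF121 held 57 and 36 reads (1.21). These higher windows were past 2-fold on both scales. Towards lower values, exon windows of ZNF814 held 1 and 47 reads (-4.40, -10.71 to -2.82) and 1 and 45 (-4.35), while the 3' UTR windows of the same gene held 93 and 188, 70 and 126, and 75 and 123 (-0.19, -0.10 and 0.03). Among the counted windows of ZNF814, the low ratios were thus in a single stretch of exon sequence covered by overlapping windows. In ZNF345, intron windows held 5 and 40, 5 and 30, and 5 and 27 reads (-2.48, -2.11 and -1.97), and 6 of the 8 called peaks of this gene overlie ZNF829. Overlapping 3' UTR windows of ZNF559 held 8 and 57 and 9 and 59 reads (-2.30 and -2.18), and an exon window of ZNF426 held 12 and 63 (-1.85). The peaks named in this paragraph were chosen after their values were seen.

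Summed per gene, 71 members had at least 100 reads over their merged peaks. Their log2 ratios of summed density ran from -1.63 in ZNF345, with 31 reads in the lactate IP against 130 in the ddH2O IP, to 1.09 in ZNF780B, with a median of 0.01. Next to the bottom were ZNF132 (22 and 83 reads, -1.44) and ZNF329 (23 and 78 reads, -1.33). Next to the top were ZNF700 (59 and 42 reads, 0.74) and ZNF432 (75 and 60 reads, 0.71). Of these 6 genes, 4 have values that cannot be given to 1 gene, since all 7 called peaks named ZNF700 overlie ZNF69, those named ZNF432 lie mostly on ZNF841, all 3 named ZNF132 overlie ZNF324B and 6 of 8 named ZNF345 overlie ZNF829. Genes with many reads thus lay on both sides of 0, and 55 of the 145 members with at least 20 reads were above 0 by density and 92 by library sums. The same count was not made for other genes.

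Members with a known role were described from a fixed list of 9. ZNF91, a repressor of SVA retrotransposons, had 9 merged peaks, 8 of them in introns, with 73 reads in each IP. An intron window of ZNF91 held 17 reads in the lactate IP against 6 in the ddH2O IP (log2 density ratio 1.58, 0.31 to 3.35), another held 17 and 9 (1.11, -0.07 to 2.52) and the one overlapping the latter held 18 and 24 (-0.02). ZNF331, an imprinted gene, had 7 merged peaks with 78 and 151 reads, and its largest exon window held 40 and 78 (-0.34, -0.94 to 0.22). ZNF274, which recruits SETDB1 to the 3' ends of other zinc finger genes, had 2 merged peaks with 18 and 22 reads that went opposite ways. An exon window held 4 and 17 (-1.67, -3.94 to -0.30), and an intron window, 1 read short of the minimum, held 14 and 5 (1.496, 0.11 to 3.49). ZNF154, whose promoter is known to be methylated in many tumours, had 3 merged peaks with 19 and 27 reads.

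The other members of that list had few reads. ZNF420, a KRAB protein known to regulate p53, had 3 intron merged peaks with 26 reads in the lactate IP against 41 in the ddH2O IP. ZNF350 had 5 and 6 reads and ZNF382 had 3 and 3, so neither allows a comparison at this depth. ZNF93 and ZNF224 had no peak in either list. Of the 9, ZNF91 had 2 of 3 counted windows at least 2-fold higher on both scales, and ZNF274 and ZNF154 had their single counted window lower by density, beside 7.65% higher and 18.6% lower over all merged peaks. By library sums the ZNF274 window stood at -0.99, short of 2-fold, and the ZNF154 window at -1.31.

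Split at gaps of more than 1 Mb, the members form 17 groups along the chromosome. The largest, from ZNF628 to ZNF446 near the end of the long arm, had 50 members and 164 merged peaks, of which 92 had at least 20 reads. Its median log2 ratio was -0.18 by density and 0.12 by library sums, with 7 merged peaks higher and 21 lower by density and 13 higher and 11 lower by library sums. Counts of each group stand beside 7.65% higher and 18.6% lower over all merged peaks by density, and 17.0% and 8.77% by library sums. The next, from ZNF175 to ZNF331, had 28 members and 163 merged peaks, with a median of 0.00, 5 higher and 5 lower among 70 by density, and a median of 0.39, 15 higher and 3 lower by library sums. From ZNF565 to ZNF573 lay 26 members with 139 merged peaks, 67.6% of them intronic, with a median of 0.02, 5 higher and 7 lower among 51 by density. By library sums the median of this group was 0.60, with 13 higher and 3 lower.

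The lowest median among groups with at least 10 counted merged peaks was -0.55, in the 18 members from ZNF575 to ZNF296, with 1 higher and 7 lower among 16. Of these 7 lower merged peaks, 4 were named for introns of ZNF155, but all 6 called peaks of that gene lay outside its RefSeq span and on ZNF221. These 4 windows held 2 and 24, 15 and 65, 18 and 79, and 19 and 57 reads in the lactate and ddH2O IP. By library sums the median of this group was -0.05, with 2 merged peaks higher and 5 lower. Among the 15 members from ZNF557 to ZNF846, 6 of 19 merged peaks were lower and 1 higher by density (median 0.07), and 5 lower and 4 higher by library sums (median 0.43). A group of 5 members from ZNF724 to ZNF254, which holds ZNF91, had 23 merged peaks, 87.0% of them in introns and none in a 3' UTR. Each group thus held merged peaks on both sides of 0 where more than a few were counted.

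Partners of KRAB proteins in silencing DNA, together with genes of other silencing machinery, were taken as a fixed list of 22 genes. All 22 had a merged peak, 199 in all, of which 93 had at least 20 reads. By density, 3 of these 93 were at least 2-fold higher in the lactate IP and 20 lower, with a median log2 ratio of -0.25, and by library sums 3 were higher and 14 lower, with a median of -0.09. TRIM28, the co-repressor that the KRAB domain binds, had 568 reads in the lactate IP against 895 in the ddH2O IP over 2 merged peaks, with a median log2 density ratio of 0.40. For SETDB1, 63 and 133 reads were recovered over 7 merged peaks. The heterochromatin protein CBX5 had 1671 and 3469 reads over 16 merged peaks, 5 of them lower by density. HDAC2, a histone deacetylase, had 352 and 979 reads and 3 of 4 counted merged peaks lower, and TASOR, a subunit of the HUSH silencing complex, had 88 and 188 reads and 3 of 4 lower. Among all merged peaks, 7.65% were higher and 18.6% lower by density, and 17.0% and 8.77% by library sums.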

How the data were processed

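The members, gene lists and rules were chosen with earlier results of these data known. Per the labels, RNA was pulled down with anti-NSUN2 and made into libraries with a SMART-Seq v4 kit. The submitters' processing notes name fastp 0.20.1, HISAT2 2.1.0, MACS2 2.2.7.1, bedtools 2.29.2, HOMER 4.11.1 and DiffBind and the builds GRCh38 and hg38, without roles, and mapping and multi-mapping settings are not given in the sources used here. Peak calling was done per library with the matching input as control, and the authors deposited for every peak its fold (an enrichment ratio), q-value and p-value, also as −log10, with the gene and region. The authors also merged the peaks, ran MAnorm and deposited a normalized read density (signal) per merged peak and IP library. The deposited log2 ratio and P of the authors' own comparison were not used.

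From the densities, whole reads were computed back, as a density is the reads plus 1 per kb moved along a line (slope 0.17, intercept -0.20). A value counted as whole within 0.05 of an integer plus 5e-05 per read, at most 0.3. This gave whole reads in 99.998% of windows, and 100.0% of 116484 windows were recovered in each of 3 simulated tables. Depth outside the merged peaks is unknown. A merged peak took a member by an overlap of at least 1 base. It was counted with at least 20 reads over both IP libraries, and as higher or lower from a density ratio of 2. Ratio intervals are exact conditional binomial intervals, and shares have Wilson intervals. Named genes were the 6 members with the most reads, the 6 largest and 6 smallest ratios with at least 100 reads, the 4 highest folds per list, the 5 genes with most merged peaks (with ties) and the fixed lists. Alternatives were library sums, read minimums of 10, 50 and none, a fold of 4, a q-value below 0.05, an overlap of 50%, non-overlapping windows, regions and merged peaks in both lists. Overlaps were found with bedtools 2.31.1, statistics computed with scipy 1.17.1, pandas 2.3.3 and numpy 2.4.6 under Python 3.11.15, and plots drawn with matplotlib 3.10.9.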

Additional observations from a re-analysis of the deposited data

How the results depend on the processing

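No paired analysis was possible because a single IP library stood for each condition. Scaling by library sums turned the median log2 ratio of the members from -0.09 to 0.29, and moved the higher merged peaks from 28 to 60 and the lower from 53 to 31, while the 4 largest ZNF780B windows fell to between 0.46 and 0.86. Both scales start from the same reads, so these changes come from the scaling alone. Which scale lies nearer to the binding was not tested. With a minimum of 10 reads 51 were higher and 113 lower (median -0.20), with 50 reads 9 and 20, and with no minimum 104 and 248 (median -0.34). A fold of 4 left 1 higher and 17 lower. Fewer merged peaks entered with non-overlapping windows (10 higher, 20 lower), exons and 3' UTRs (8 and 33), and merged peaks in both lists (12 and 13). Among peaks with a q-value below 0.05, exons and 3' UTRs held 49.7% of lactate and 47.8% of ddH2O peaks, against 43.5% and 43.7%, and 49.5% of ddH2O peaks of at least 4-fold. In the same peaks 73.8% of lactate peaks overlapped a ddH2O peak and median folds were 4.81 and 4.55. With an overlap of 50% the shared part was 33.6%. Chosen after seeing the data, leaving out ZNF780B gave 26 higher and 51 lower, and leaving out merged peaks on a further gene gave 18 and 38. The median of merged peaks in both lists also lay on the other side of 0, at 0.0042, within the spread of the members' ratios. Depth limits the comparison most in the 440 merged peaks under 20 reads.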
